A study of Homo sapiens with 18 samples.

Results

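Here the parental HAP1 line (WT) was compared with a HAP1 line that carries a knockout of ATG7 (ATG7KO), after both had been starved. The comparison rests on 6 of the 18 RNA-seq libraries of the series, 3 for each line, chosen by their labels: the libraries named WT 1 to 3 starved and ATG7KO 1 to 3 starved. HAP1 is a near-haploid human cell line that grows attached to the dish and derives from a chronic myeloid leukaemia. Cells of both starved groups were grown in Iscove's medium with 10% serum and then kept for 6 h in EBSS, Earle's solution of salts and glucose, which removes amino acids and serum. The same lines left in full medium (3 libraries each) served as the background. A line labelled RB1CC1KO/FIP200KO is used only for values set side by side. Polyadenylated RNA from independent replicate cultures was sequenced as single reads of 75 bases. The labels name 1 line for each genotype, and the edited position in ATG7 is not given in the sources used here. Loss of ATG7 and any other difference between the lines can therefore not be told apart.

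ATG7 is the E1-like enzyme of autophagy. It activates the ubiquitin-like protein ATG12, which is joined to ATG5, and the ATG8 proteins (the LC3 and GABARAP families), which are joined to a lipid of the growing autophagosome. Without ATG7 this canonical lipidation does not take place, and cargo receptors such as SQSTM1 are no longer cleared by that route. Amino acid and serum withdrawal generally lowers mTORC1 activity, removes the growth factors of serum, and turns on autophagy and the ATF4 transcription programme. Signalling itself was not measured here.

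Depth set one limit on the comparison. The starved ATG7KO replicate 3 had 4892072 reads in genes and detected 17418 genes, against 14765145 to 16858058 reads and 20018 to 20652 genes in the other 5 starved libraries. On the first principal component of the 6 libraries (56.7% of the variance) the 3 ATG7KO libraries lay apart from the 3 WT libraries, and on the second (19.7%) the shallow library lay at 27.9, against -17.0 and -20.7 for the other 2 ATG7KO libraries. Libraries of a group differed by more than sampling noise (chi-square per degree of freedom from 2.32 to 7.13), so that each was counted as 1 sample. Levels are given as CPM, the reads of a gene as a share of the library's reads, scaled with TMM factors. Differences are log2 fold changes of ATG7KO over WT with a standard error (SE), and a gene was called where its p, adjusted by Benjamini-Hochberg over all 15179 genes tested, was below 0.05. Every p of a gene is from edgeR's quasi-likelihood test.

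The knockout target came first. ATG7 lies on the plus strand of chromosome 3, from 11272309 to 11557665 in GRCh38 (ENSG00000197548). It had a level of 16.0, 17.8 and 14.5 CPM in starved WT and of 11, 10.2 and 9.97 CPM in starved ATG7KO. The groups did not overlap, and the level in ATG7KO was lower, with a log2 fold change of -0.62 ± 0.12 (adjusted p = 0.000149). In full medium the gap was wider, -1.95 ± 0.12 (adjusted p = 8.81e-15), with ATG7KO at 4.51, 3.68 and 3.87 CPM there and WT at 14.2, 15.7 and 16.8 CPM. The line difference of ATG7 itself thus differed between the media, by 1.33 ± 0.17 on the log2 scale (adjusted p = 6.07e-06). Transcript left in the knockout line says nothing about the protein, and VGLL4 shares 15.7% of the 75-base stretches of ATG7 transcripts.

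After EBSS 2010 of 15179 genes (13.2%) were called between the lines. Of these 922 (6.07%) were higher in ATG7KO, 1088 (7.17%) were lower, and 425 (2.8%) differed at least 2-fold, 171 of them higher and 254 lower. The median log2 fold change over all genes tested was 0.01. In bulk RNA fewer cells of a kind and less RNA per cell cannot be told apart, for these and all later values. The number called depended on depth and on single libraries. It was 1314 (518 higher) with the 6 libraries thinned to the depth of the shallowest and 1235 (503 higher) without ATG7KO replicate 2. Without WT replicate 1 the number of higher genes was 562, and without the shallow library 1642 genes were called, 739 higher and 903 lower.

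Genes near 0 in WT and expressed in the starved ATG7KO line came from several families. RTL8B, an X-linked gene derived from a retrotransposon, stood at 0.0709, 0.375 and 0.320 CPM in WT and at 14.5, 15.8 and 10.4 CPM in ATG7KO. WT was close to 0 in every library while each ATG7KO library held over 10 CPM, a log2 fold change of 5.70 ± 0.25 (adjusted p = 2.06e-19). Its relatives RTL8A and RTL8C share 2.51% of its 75-base stretches. NKX2-4, a homeobox transcription factor gene, went from 0.213, 0.188 and 0.320 CPM in WT to 5.49, 7.67 and 7.43 CPM in ATG7KO (4.77 ± 0.34, adjusted p = 3.68e-13). All 3 ATG7KO libraries lay far above all 3 WT libraries for both genes.

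Other genes with large higher values follow in order of fold change. TAFA5, a gene for a secreted chemokine-like protein, was higher by 4.06 ± 0.20, TCEAL9, an X-linked relative of a transcription elongation factor, by 3.20 ± 0.13, and ATCAY, which encodes the neuronal protein caytaxin, by 3.09 ± 0.24. ZNF329, a zinc finger gene, followed at 3.03 ± 0.23, ELAPOR2 at 2.90 ± 0.14, TMEM132E at 2.87 ± 0.21 and GABRA5, a subunit of the GABA-A receptor, at 2.63 ± 0.12. The homeobox gene ALX4 rose from 10.9 ± 2.11 to 57.1 ± 1.05 CPM (SD, n = 3; 2.38 ± 0.10), RAB36 was higher by 2.30 ± 0.25, and DLK1, an imprinted gene for a Notch-related surface protein, by 2.20 ± 0.24. The adjusted p of these 10 genes ranged from 6.85e-20 (ALX4) to 1.28e-08 (RAB36). Their libraries did not overlap between the lines, but the rule that named them required this, so that it adds no support. Over all genes tested, 13.5% lay without overlap on the higher side in ATG7KO and 14.1% on the lower side. By difference in CPM the largest higher values were those of the imprinted gene PEG10 (3546 ± 121 to 4230.0 ± 132 CPM), VIM, SLC3A2, the ubiquitin ligase gene HUWE1 (900.2 ± 48.9 to 1179 ± 42.7 CPM) and TFRC, the transferrin receptor.

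Several genes that WT expressed clearly were nearly silent in ATG7KO. COL11A1, a chain of fibrillar collagen, stood at 96.4, 88.9 and 91.4 CPM in WT and at 0.129, 0.136 and 0.424 CPM in ATG7KO, a log2 fold change of -9.0 ± 0.20 (adjusted p = 3.08e-28). CHL1, a neural cell adhesion molecule, stood at 25.1, 23.4 and 24.9 CPM against 0.194, 0.0679 and 0.424 CPM (-7.08 ± 0.27, adjusted p = 1.12e-20). GALNT5, a glycosyltransferase that starts mucin-type O-glycans, stood at 18.7, 19.7 and 17.2 CPM against 0.194, 0.204 and 0 CPM (-6.69 ± 0.26, adjusted p = 1.12e-20). For these 3 genes every ATG7KO library was below 1 CPM and every WT library above 15 CPM.

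Other genes with large lower values kept some expression in ATG7KO. SETBP1 stood at -4.14 ± 0.18, the stem cell surface gene PROM1 at -3.80 ± 0.27, TMEM200A at -3.47 ± 0.25, the sarcomere gene MYOM1 at -3.44 ± 0.09, the oncostatin M receptor gene OSMR at -3.36 ± 0.15, the glypican gene GPC6 at -2.93 ± 0.14 and CSMD1 at -2.76 ± 0.19. LGALS8, whose product galectin-8 detects damaged endosomes and lysosomes and recruits an autophagy receptor, stood at 46.3, 47.7 and 43.7 CPM in WT and at 3.75, 3.26 and 3.61 CPM in ATG7KO (-3.70 ± 0.15, adjusted p = 6.85e-20). Other genes, HEATR1 among them, share 24.5% of the 75-base stretches of LGALS8 transcripts. TAL1, a transcription factor of blood stem cells, stood at 19.0, 15.7 and 17.5 CPM against 1.49, 1.43 and 1.27 CPM (-3.60 ± 0.16, adjusted p = 3.8e-19). In neither gene did the lines overlap, again a condition of the naming rule, and the 3 ATG7KO libraries lay close together. By difference in CPM the largest lower values were those of EGR1, GPC4 (551 ± 7.11 to 361 ± 7.23 CPM), MCL1, OGT (521 ± 19.0 to 415 ± 24.5 CPM), which encodes the O-GlcNAc transferase, and TMEM47 (171 ± 6.98 to 33.8 ± 2.64 CPM).

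**Figure D1:**
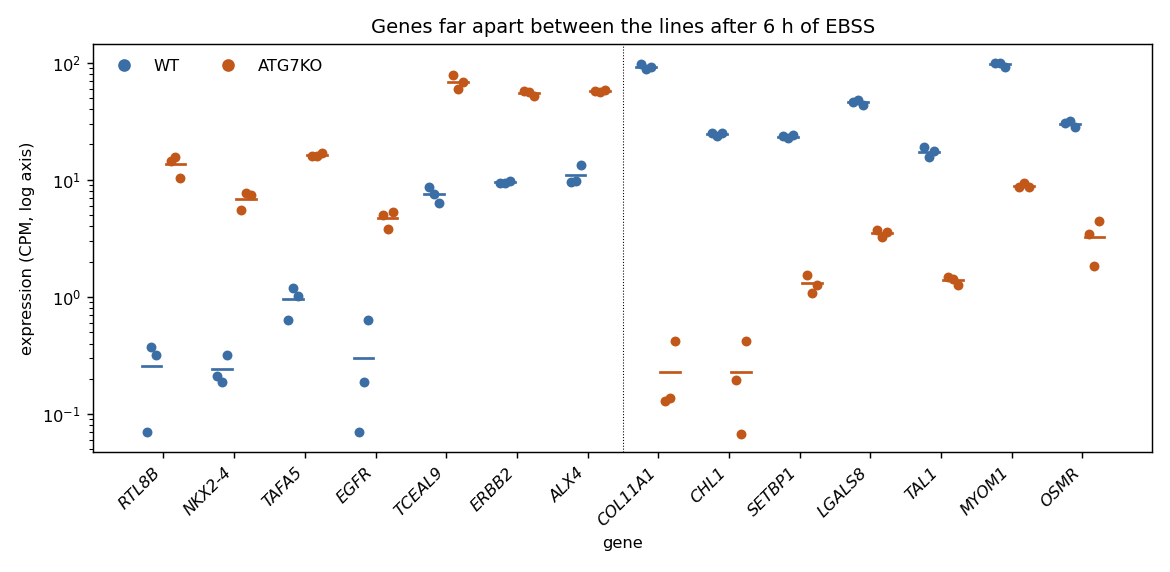
CPM of 14 genes with wide line differences (log axis) in each starved library, WT in blue and ATG7KO in orange, with a bar at each group's mean. The 7 genes left of the dotted line were higher in ATG7KO and the 7 to the right lower, and in no gene do the libraries of the 2 lines overlap.

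Growth factor receptors that feed the ERK pathway differed in both directions. Receptor tyrosine kinases at the cell surface activate RAS and the kinases RAF, MEK and ERK, ERK induces immediate early transcription factors such as the EGR and FOS families, and the products of ERK-induced Sprouty, SPRED and DUSP genes then damp the pathway. EGFR stood at 0.0709, 0.188 and 0.641 CPM in WT and at 4.98, 3.80 and 5.30 CPM in ATG7KO (3.87 ± 0.44, adjusted p = 4.77e-08). ERBB2, its co-receptor, stood at 9.36, 9.45 and 9.67 CPM against 56.7, 56.4 and 51.8 CPM (2.54 ± 0.11, adjusted p = 6.85e-20). Both were higher in every ATG7KO library than in any WT library. Of 18 tested ERK-responsive or ERK-activating secreted and surface genes, 4 were higher (EGFR, ERBB2, PDGFRA at 0.56 ± 0.11 and FGFR3 at 0.50 ± 0.10) and 3 lower (KIT at -3.0 ± 0.27, MET at -0.81 ± 0.08 and IGF1R at -0.35 ± 0.07). The list median was 0.06, against 0.01 over all genes, of which 6.07% were higher and 7.17% lower. PDGFRA, FGFR3 and IGF1R were added after their values were seen, so that all 7 called members stand here. The same 7 members were also called in the same direction in full medium, with EGFR at 3.42 ± 0.43 and ERBB2 at 2.27 ± 0.10 there.

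Of 30 tested immediate early transcription factors 13 were lower and 1 higher in starved ATG7KO cells, with a median of -0.24, against 7.17% lower, 6.07% higher and a median of 0.01 over all genes. EGR2 stood at 59.4, 61.9 and 65.0 CPM in WT and at 36.6, 32.7 and 27.2 CPM in ATG7KO (-0.92 ± 0.11, adjusted p = 3.15e-07). NAB2, a corepressor that binds EGR proteins and is itself an EGR target, stood at 135, 109.8 and 141 CPM against 64.4, 54.9 and 61.3 CPM (-1.10 ± 0.10, adjusted p = 4.83e-10). KLF10, induced by growth factors, stood at 169, 165 and 168 CPM against 109.9, 86.0 and 85.5 CPM (-0.82 ± 0.08, adjusted p = 2.29e-10). In all 3 genes the highest ATG7KO library was below the lowest WT library. EGR1, the leading member of the family by CPM difference, had a smaller gap in relative terms. It stood at 1636, 1778 and 1972 CPM in WT and at 1614, 1329 and 1383 CPM in ATG7KO (-0.32 ± 0.08, adjusted p = 0.00484), and the highest ATG7KO library, replicate 1, lay just below the lowest WT library.

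The remaining called members are given in full and were named after their values were seen, apart from FOSL2 and BTG2. EGR3 stood at -1.37 ± 0.15, the FOS relative FOSL2 at -1.26 ± 0.14, KLF4 at -1.02 ± 0.14, NR4A2 at -0.90 ± 0.14, BTG2 at -0.67 ± 0.08, MAFF at -0.53 ± 0.10, the mRNA decay factor gene ZFP36 at -0.50 ± 0.10, FOSL1 at -0.49 ± 0.12 and MYC at -0.21 ± 0.07. JUN was the 1 higher member (0.39 ± 0.09, adjusted p = 0.00626). FOS did not pass the test (0.26 ± 0.09, adjusted p = 0.0716), but was called higher in 5 of 13 alternatives: without the filter (adjusted p = 0.00302), with DESeq2 (0.0262), with only the 6 compared libraries (0.0214), with the replicate block (0.0387) and without WT replicate 3 (0.00175). FOSL1 and JUN were no longer called without ATG7KO replicate 2 (-0.39, adjusted p = 0.0703, and 0.32, adjusted p = 0.0535). MYC was not called without WT replicate 2 (adjusted p = 0.123) or 3 (0.107), or without ATG7KO replicate 2 (0.119) or 3 (0.0857). Between 11 and 13 members of the list were called lower under each alternative.

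Negative feedback genes of the ERK pathway were lower as well, 12 of 24 tested, with 1 higher and a median of -0.36. Over all genes 7.17% were lower and 6.07% higher, with a median of 0.01. SPRY2, a Sprouty gene whose product blocks RAS activation, stood at 34.3, 30.5 and 33.1 CPM in WT and at 14.3, 16.4 and 14.6 CPM in ATG7KO (-1.10 ± 0.11, adjusted p = 1.29e-09). ERRFI1, an inhibitor of EGFR, stood at 31.0, 25.7 and 28.8 CPM against 13.4, 11.6 and 14.2 CPM (-1.15 ± 0.11, adjusted p = 1.21e-09). DUSP6, the cytosolic phosphatase of ERK, stood at 5.96, 6.57 and 5.51 CPM against 2.58, 2.45 and 2.97 CPM (-1.21 ± 0.24, adjusted p = 0.000343). In each of these genes the ATG7KO libraries lay at about the same low level, with no overlap with WT. A gene that overlaps DUSP6 shares 35.3% of its 75-base stretches.

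ETV1, an ETS factor, stood at -1.53 ± 0.23, SPRY1 at -1.08 ± 0.22, the ERK phosphatase gene DUSP5 at -0.89 ± 0.23, PHLDA1 at -0.79 ± 0.11, SPRY4 at -0.63 ± 0.18 and SPRY3 at -0.56 ± 0.17. SPRED2, SPRED1 and the RAS GTPase-activating gene RASA2 stood at -0.48 ± 0.08, -0.36 ± 0.08 and -0.37 ± 0.11. SPRY1, DUSP5, SPRY3, SPRED1, SPRED2, RASA2 and DUSP10 were named after their values were seen. DUSP10, a phosphatase of p38 and JNK rather than ERK, was the 1 higher member (0.57 ± 0.16). DUSP4 (0.07 ± 0.18), ETV4 (0.07 ± 0.17) and ETV5 (0.39 ± 0.20) did not pass the test.

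Some of these calls rested on single libraries. SPRY4 was not called without WT replicate 1 (adjusted p = 0.058) or ATG7KO replicate 2 (0.0808), and RASA2 not without WT replicate 1 (0.0839) or 2 (0.158) or ATG7KO replicate 2 (0.232). SPRY3 lost its call without WT replicate 1 (adjusted p = 0.0526) or 2 (0.102) and without ATG7KO replicate 2 (0.157) or 3 (0.0508), and DUSP10 without WT replicate 2 (0.0678) or ATG7KO replicate 3 (0.0599). Thinned to the shallowest library, SPRY4 (adjusted p = 0.277), DUSP5 (0.185), SPRY3 (0.17) and DUSP10 (0.307) lost their call. Between 9 (thinned) and 12 members of the list were called lower under each alternative, and 12 without the shallow library.

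The 250 bases before the start of these genes were read for known elements, from RefSeq promoters of GRCh38.p14, which hold 18 of the 25 lower members of the 2 lists. The element GCGNGGGCG, which EGR proteins bind, was found on either strand in 6 of the 18, or 33.3%, against 14.2% of the 11024 tested genes with a promoter and 8.25% of all 27303 promoters. The 6 genes were EGR1, NAB2, SPRY2, SPRY4, BTG2 and KLF4. The CArG box, to which serum response factor binds, was in 1 of the 18, the promoter of EGR1, which holds 2 copies. It was in 0.998% of the tested genes with a promoter and in 1.14% of all promoters. The cyclic AMP element TGACGTCA was in 1 (MAFF), in 2.91% of these tested genes and in 1.77% of all promoters. The AP-1 element TGACTCA was in 0 of the 18, in 2.38% of the tested genes and in 4.16% of all promoters. These matches describe letters in the window and nothing more. Line differences of DUSP6, PHLDA1, FOSL2, MAFF, SPRED1 and SPRED2 depended on the medium, and their promoters held neither the EGR element nor the CArG box. Shown are 4 of the 6 promoters with the EGR element, those of genes whose line difference also depended on the medium. The EGR element and the CArG box are in capitals, 5′ to 3′ on the strand of the gene: EGR1 at chr5:138465229-138465478 (plus strand), NAB2 at chr12:57088864-57089113 (plus), SPRY2 at chr13:80341127-80341376 (minus) and SPRY4 at chr5:142324248-142324497 (minus). In SPRY4 and in the second match of SPRY2 the element lies on the opposite strand and reads as its reverse complement.
EGR1: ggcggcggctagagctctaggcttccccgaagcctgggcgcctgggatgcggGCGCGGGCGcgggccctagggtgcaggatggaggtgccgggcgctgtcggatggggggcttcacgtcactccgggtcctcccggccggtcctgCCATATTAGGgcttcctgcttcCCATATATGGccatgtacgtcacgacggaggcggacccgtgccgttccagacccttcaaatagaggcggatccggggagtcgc
NAB2: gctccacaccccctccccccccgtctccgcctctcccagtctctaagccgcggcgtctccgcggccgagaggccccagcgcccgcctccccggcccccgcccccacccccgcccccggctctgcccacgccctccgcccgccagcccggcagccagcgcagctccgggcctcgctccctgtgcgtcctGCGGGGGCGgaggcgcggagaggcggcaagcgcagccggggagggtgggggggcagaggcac
SPRY2: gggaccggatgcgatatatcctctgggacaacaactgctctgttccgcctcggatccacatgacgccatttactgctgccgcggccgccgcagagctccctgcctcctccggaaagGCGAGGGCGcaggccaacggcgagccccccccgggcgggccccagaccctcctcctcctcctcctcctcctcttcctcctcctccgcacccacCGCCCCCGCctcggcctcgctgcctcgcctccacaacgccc
SPRY4: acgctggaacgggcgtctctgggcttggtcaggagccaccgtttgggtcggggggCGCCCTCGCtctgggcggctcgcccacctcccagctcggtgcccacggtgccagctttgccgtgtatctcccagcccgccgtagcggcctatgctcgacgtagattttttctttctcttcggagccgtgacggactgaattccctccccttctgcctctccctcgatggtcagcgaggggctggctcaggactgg

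**Figure D2:**
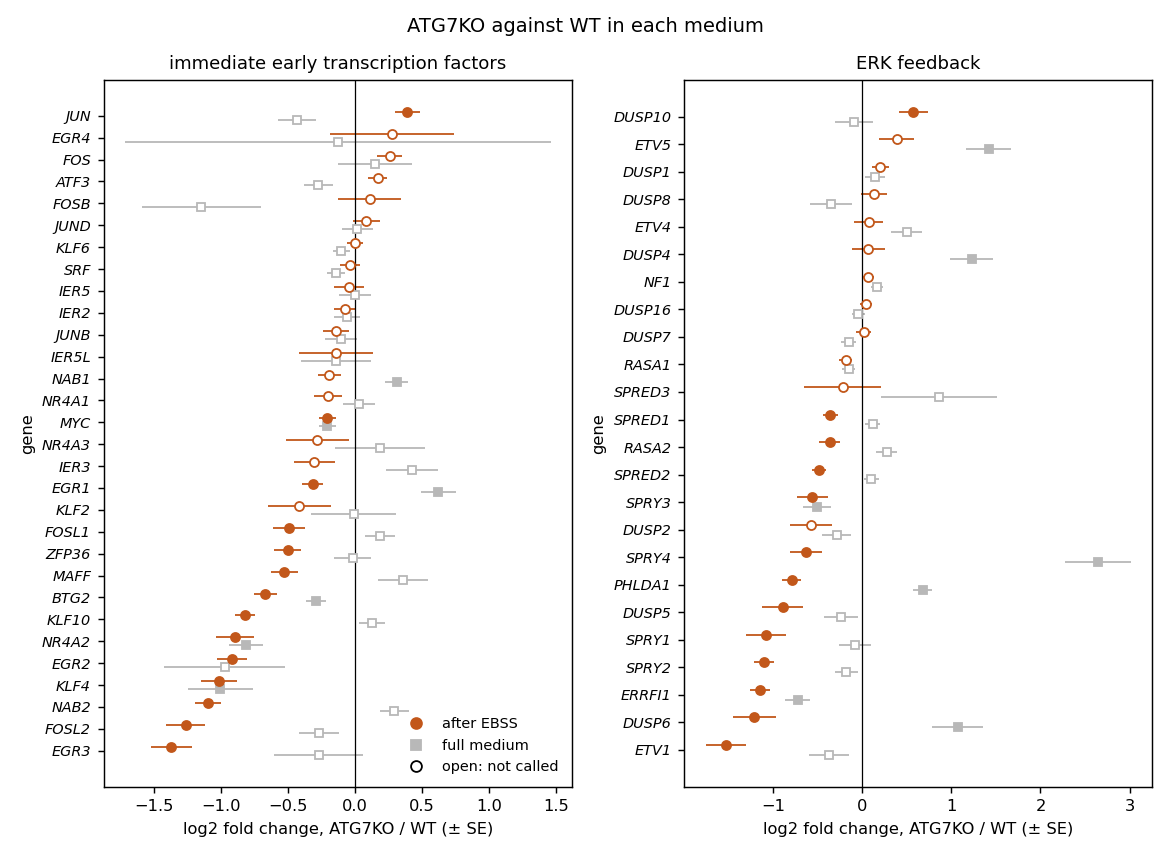
Log2 fold change of ATG7KO over WT (± SE) for the 30 tested immediate early transcription factors and the 24 tested ERK feedback genes, after EBSS (orange circles) and in full medium (grey squares), with open symbols for genes not called. After EBSS 13 and 12 members were called lower, while SPRY4, DUSP6, PHLDA1 and EGR1 lay above 0 in full medium and below 0 after EBSS.

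The same 2 lines were also compared in full medium, with no library in common, to see which gaps were present in fed cells. In full medium 1599 genes (10.5%) were called, 678 (4.47%) higher and 921 (6.07%) lower in ATG7KO, and 407 (2.68%) differed at least 2-fold. Of the genes called, 808 were called in both media, 40.2% of the starved and 50.5% of the full medium calls, and 790 of them in the same direction, 331 higher and 459 lower. Among the 425 genes at least 2-fold apart after EBSS, 323 were also called in full medium in the same direction. Across all 15179 genes the log2 fold changes of the 2 media had a Pearson r of 0.729, a description across genes that are not independent replicates. COL11A1 (-8.13 ± 0.17 in full medium), CHL1 (-6.94 ± 0.25), GALNT5 (-6.70 ± 0.19), RTL8B (7.24 ± 0.21), TAFA5 (4.97 ± 0.19) and TCEAL9 (3.79 ± 0.15) were among those called in both.

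The test of the difference between the media itself called 160 genes (1.05%), 56 (0.369%) with a higher and 104 (0.685%) with a lower ATG7KO-to-WT ratio after EBSS than in full medium, 23 (0.152%) of them by at least 2-fold. Of the 2010 starved calls 126 passed it. Of the 1202 genes called after EBSS and not in full medium, 96 passed it and 870 had the same sign in both media. The count of 160 moved with single starved libraries, to 73 and 94 without WT replicate 1 and 2, to 275 without WT replicate 3, to 274 and 71 without ATG7KO replicate 1 and 2, and of full medium libraries to 102 and 101 without WT replicate 1 and 3 and to 92 without either ATG7KO replicate 1 or 2. Without the low count filter it was 281. The excess of lower calls was small without the filter (134 higher and 147 lower) and with the replicate block (141 and 152), and it turned round without starved WT replicate 3 (143 higher and 132 lower).

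**Figure D3:**
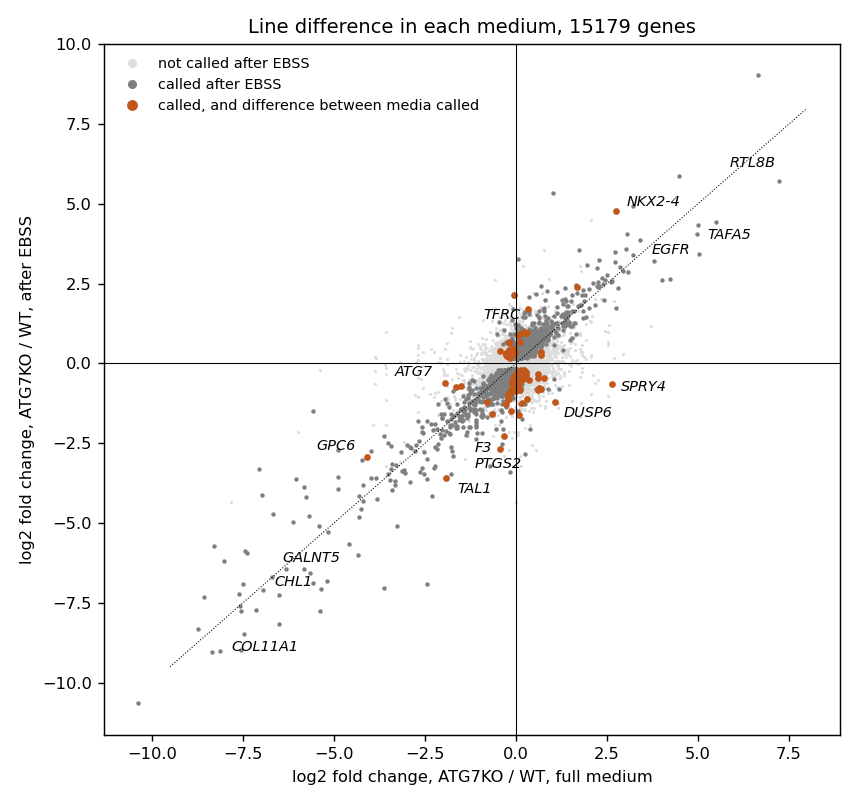
Log2 fold change of ATG7KO over WT in full medium (x) and after EBSS (y) for 15179 genes, with the dotted line where both are equal. Grey points were called after EBSS, and orange points were also called in the test of the difference between the media, such as SPRY4 and DUSP6, which were higher in ATG7KO in full medium and lower after EBSS.

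Several ERK-related genes had a lower ATG7KO-to-WT ratio after EBSS than in full medium. In the ERK feedback list 8 of 24 passed this test, all lower (SPRY4, DUSP6, PHLDA1, DUSP4, SPRY2, RASA2, SPRED2 and SPRED1), and in the immediate early list 7 of 30 were lower (NAB2, FOSL2, KLF10, EGR1, MAFF, FOSL1 and NAB1) and JUN was higher. Over all genes 0.685% were lower and 0.369% higher in this test. SPRY4 stood at 0.365, 0.198 and 0.157 CPM in WT and 1.34, 1.57 and 1.68 CPM in ATG7KO in full medium, a line difference of 2.65 ± 0.37, and after EBSS at 8.09, 6.88 and 7.43 against 4.91, 4.55 and 5.09 CPM, a line difference of -0.63 ± 0.18. The line order was thus turned round, and the difference between the media was -3.28 ± 0.41 (adjusted p = 4.36e-06). Full medium WT libraries, at 0.365 CPM or less, held few reads of SPRY4, and both 2.65 and -3.28 rest on them. DUSP6 also turned round. It stood at 1.10, 1.24 and 1.02 CPM in WT and 1.78, 2.32 and 3.12 CPM in ATG7KO in full medium (1.07 ± 0.28), and the difference between the media was -2.28 ± 0.37 (adjusted p = 0.000446). In ATG7KO the fed and starved libraries of DUSP6 overlapped, while in WT every starved library was above every fed one.

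NAB2 was at 19.6, 19.2 and 19.9 CPM in WT and 25.4, 23.5 and 23.0 CPM in ATG7KO in full medium, and its difference between the media was -1.39 ± 0.15 (adjusted p = 7.52e-07). EGR1 had a far lower level in full medium than after EBSS, with 8.48, 6.00 and 8.82 CPM in WT and 11.3, 13.0 and 10.7 CPM in ATG7KO. Its difference between the media was -0.94 ± 0.15 (adjusted p = 0.000754). SPRY2 (-0.92 ± 0.17), PHLDA1 (-1.47 ± 0.15) and KLF10 (-0.95 ± 0.12) went the same way. EGR2 did not pass this test (0.06 ± 0.38, adjusted p = 0.972), and its full medium level was at or below 1 CPM in all 6 libraries. FOSL2 (-1.0 ± 0.21) lost its call in this test without starved ATG7KO replicate 2 (adjusted p = 0.0717). DUSP4, RASA2, SPRED1, MAFF, FOSL1 and NAB1 lost theirs in 5 to 11 of 19 alternatives each, all of them without starved WT replicate 1 and without starved ATG7KO replicate 2 (adjusted p = 0.131, 0.159, 0.102, 0.0623, 0.151 and 0.102 without the latter). JUN (0.82 ± 0.17) lost its call without full medium ATG7KO replicate 2 (adjusted p = 0.0575).

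Outside these lists, the ATG7KO-to-WT ratio was lower after EBSS than in full medium for F3, PTGS2, TNFRSF12A and TAL1, among others. F3, tissue factor, stood at 7.02, 9.08 and 8.19 CPM in WT and 5.95, 6.76 and 6.80 CPM in ATG7KO in full medium and at 27.9, 25.4 and 24.0 against 5.69, 5.23 and 4.88 CPM after EBSS. Every WT library was higher after EBSS than in full medium, no starved ATG7KO library reached the fed ATG7KO libraries, and the difference between the media was -1.94 ± 0.18 (adjusted p = 9.24e-09). PTGS2, the inducible cyclooxygenase, was at 15.3, 15.1 and 15.0 CPM in starved WT and 3.42, 1.22 and 2.55 CPM in starved ATG7KO, with a difference of -2.22 ± 0.45 (adjusted p = 0.00839), a call lost without full medium ATG7KO replicate 2 (adjusted p = 0.0584). TNFRSF12A, the TWEAK receptor, followed with -1.70 ± 0.30 (adjusted p = 0.00122) and TAL1 with -1.68 ± 0.20 (adjusted p = 2.67e-06). All 4 were lower in every starved ATG7KO library than in any starved WT library, which the rule that named them required.

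A higher ratio after EBSS was seen for ATG7, as given above, and for other genes. GPC6 (1.16 ± 0.24) and STX18 (0.92 ± 0.10, adjusted p = 7.52e-07), a syntaxin of the endoplasmic reticulum, were lower in ATG7KO in both media with a smaller gap after EBSS. GPC6 lost its call in this test without full medium ATG7KO replicate 2 (adjusted p = 0.0609) or 3 (0.0549). The proline synthesis gene PYCR3 (0.83 ± 0.20), DAB2 (0.83 ± 0.21), an adaptor of endocytosis, and RPS6KL1 (0.86 ± 0.22) were higher in starved ATG7KO, and each lost its call in this test in 9 to 11 of 19 alternatives, among them without starved WT replicate 1 (adjusted p = 0.096, 0.136 and 0.159) or 2. NKX2-4 (2.02 ± 0.51, adjusted p = 0.041) lost its call in 9 of 19, among them without starved WT replicate 1 (0.13) or 2 (0.143) or starved ATG7KO replicate 2 (0.129) or 3 (0.0642).

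**Figure D4:**
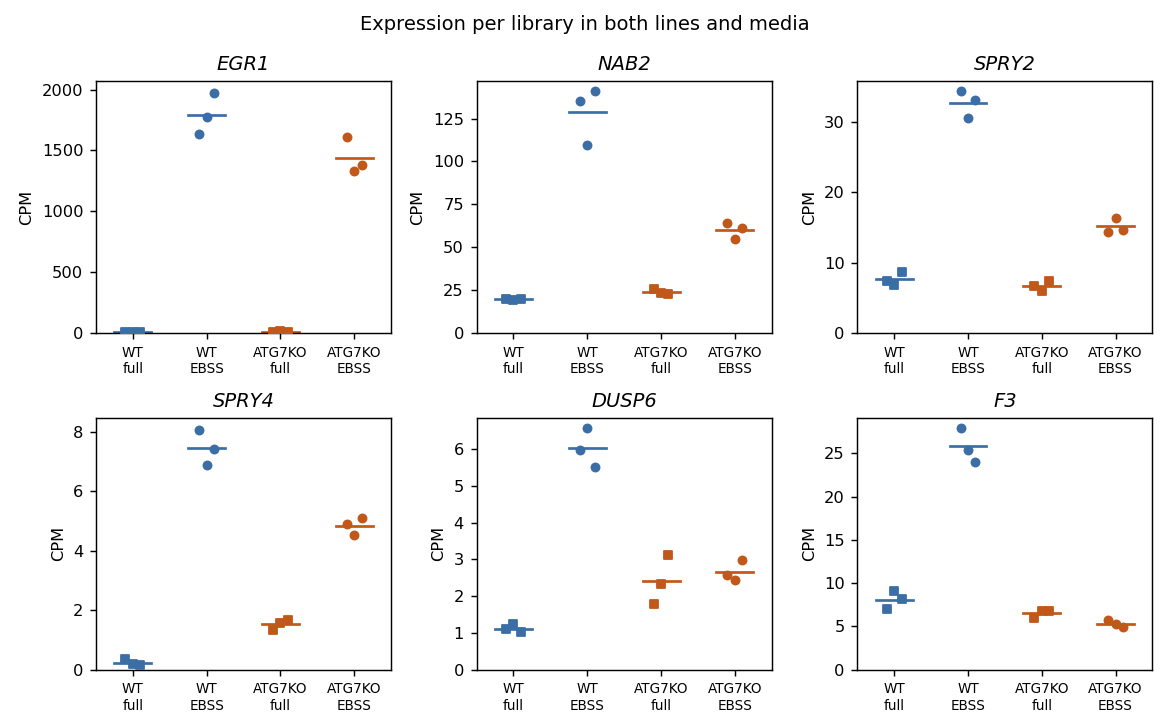
CPM per library (squares, full medium; circles, EBSS) with group means as bars, WT in blue and ATG7KO in orange, for EGR1, NAB2, SPRY2, SPRY4, DUSP6 and F3. In all 6 genes the starved ATG7KO libraries lie below the starved WT libraries, while in full medium SPRY4, DUSP6, NAB2 and EGR1 lie higher in ATG7KO.

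Among targets of the YAP coactivator and of serum response factor 4 members turned round in the same way. After EBSS 4 of 19 tested members were lower and 3 higher, and in full medium 8 were higher and 1 lower. Over all genes 7.17% were lower and 6.07% higher after EBSS, and 4.47% were higher and 6.07% lower in full medium. CCN1 stood at 58.2, 62.0 and 59.3 CPM in starved WT and 42.8, 46.5 and 40.1 CPM in starved ATG7KO (-0.46 ± 0.07), against 117, 117 and 115 and 179, 176 and 178 CPM in full medium (0.61 ± 0.06). CCN2 (-0.76 ± 0.15 after EBSS, 0.64 ± 0.11 in full medium), TAGLN (-0.46 ± 0.16 and 0.78 ± 0.22) and AMOTL2 (-0.30 ± 0.07 and 0.21 ± 0.06) were also lower in one medium and higher in the other. TAGLN was named after its values were seen, and its starved call was lost without WT replicate 1 (adjusted p = 0.0987) or 3 (0.182) or ATG7KO replicate 1 (0.129) or 2 (0.172). Differences between the media were -1.07 ± 0.09 for CCN1 (adjusted p = 2.37e-09), -1.39 ± 0.18 for CCN2 (adjusted p = 9.86e-06), -1.24 ± 0.27 for TAGLN (adjusted p = 0.0137) and -0.51 ± 0.09 for AMOTL2 (adjusted p = 0.00298). YAP1 itself (0.03 ± 0.06) and SRF (-0.04 ± 0.07) did not pass the test after EBSS. The call of TAGLN in the test between the media was lost without full medium WT replicate 2 (adjusted p = 0.0709) or ATG7KO replicate 1 (0.0709). The receptor AXL, another member, was higher (1.49 ± 0.21), and it was the 1 higher call left without WT replicate 1 or 3 or ATG7KO replicate 1 or 2.

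Genes of the autophagy machinery other than ATG7 had differences of at most 0.57 (log2) in size where they were called. Of 8 tested conjugation genes other than ATG7, edgeR's quasi-likelihood test called 0, with values from -0.17 (ATG16L1) to 0.08 (ATG5). DESeq2 also called 0, 1 had an unadjusted p below 0.05, and 1 was called lower without ATG7KO replicate 1. Of 19 initiation and nucleation genes 4 were lower and 1 higher (26.3% called, against 13.2% of all genes): VMP1, needed for autophagosome formation, at -0.38 ± 0.07, NRBF2 at -0.45 ± 0.11, BECN1 at -0.26 ± 0.07, WIPI1 at -0.57 ± 0.18, and AMBRA1 at 0.27 ± 0.09, named after its value was seen. AMBRA1 was not called without WT replicate 1 (adjusted p = 0.192) or 2 (0.103) or ATG7KO replicate 1 (0.0858), 2 (0.0738) or 3 (0.168). WIPI1 was not called without WT replicate 2 (adjusted p = 0.0756) or 3 (0.0884) or ATG7KO replicate 2 (0.112) or 3 (0.0875). Among 8 ATG8 and ATG4 genes GABARAPL1 was lower (-0.29 ± 0.08), a call lost without WT replicate 1 (adjusted p = 0.054) or ATG7KO replicate 2 (0.0561), and MAP1LC3B, which encodes LC3B, did not pass (239.8, 232 and 220.4 CPM against 212, 204 and 203 CPM, -0.16 ± 0.06, adjusted p = 0.0735 by edgeR). It was called lower by DESeq2 (adjusted p = 0.0411), with the replicate block (0.0464) and without ATG7KO replicate 1 (0.0372).

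Receptor genes differed by at most 0.27 where called. SQSTM1, whose protein p62 is an autophagy cargo, stood at 308, 297 and 317 CPM in WT and 297, 312 and 321 CPM in ATG7KO (0.01 ± 0.06, adjusted p = 0.944), with overlapping libraries. OPTN (-0.27 ± 0.08), BNIP3L (-0.26 ± 0.07) and TAX1BP1 (-0.22 ± 0.07) were lower, 3 of 13 tested receptors (23.1%, against 7.17% of all genes). That count was 1 without WT replicate 1 or 2, 0 without ATG7KO replicate 2 and 0 without the shallow library. Of 33 lysosome genes 2 were higher and 1 lower (9.09% called), with a median of -0.03. The higher count was 1 without WT replicate 1 or 2 or ATG7KO replicate 1 or 2, and the lower count 0 without any WT replicate or ATG7KO replicate 2 or 3.

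ATF4, the transcription factor of the amino acid response, stood at 892, 935 and 893 CPM in WT and 838, 857 and 856 CPM in ATG7KO (-0.09 ± 0.05, adjusted p = 0.288). Of 43 tested genes of its programme 6 were higher and 1 lower (16.3% called, against 13.2% of all genes), with a median of 0.09. CHAC1, which breaks down glutathione, was the lower one (162, 141 and 172 CPM against 88.8, 87.8 and 97.0 CPM, -0.80 ± 0.09, adjusted p = 2.75e-07), and SLC3A2, the heavy chain of amino acid exchangers, led the higher ones (803 ± 41.2 to 1035 ± 82.2 CPM, 0.37 ± 0.06, adjusted p = 6.27e-05). The 6 higher calls became 2 without WT replicate 1 or 2, 3 without ATG7KO replicate 1 or 2 and 1 without the shallow library.

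FOXO factors, which enter the nucleus when insulin signalling falls, had targets on both sides. Of 21 tested 4 were higher and 4 lower, against 6.07% and 7.17% of all genes, with a median of 0.01. TRIB1 (-1.10 ± 0.13) and CCNG2 (-0.33 ± 0.06) were lower, and BCL6 (0.56 ± 0.09) and IRS1 (0.86 ± 0.17), an adaptor of the insulin receptor, were higher. FOXO1 itself was lower (-0.41 ± 0.09, adjusted p = 0.00133).

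Among iron genes the transferrin receptor differed. TFRC, which imports transferrin-bound iron, stood at 209.9, 199.5 and 198 CPM in starved WT and at 377, 397 and 393 CPM in starved ATG7KO (0.94 ± 0.06, adjusted p = 5.06e-14). Every ATG7KO library was well above every WT library, and the gap was wider than in full medium (0.31 ± 0.06) by 0.63 ± 0.09 (adjusted p = 2.34e-05). FTL, the ferritin light chain, was higher by 0.26 ± 0.06, a call lost without WT replicate 1 (adjusted p = 0.0514) or ATG7KO replicate 2 (0.149), and no other of 10 iron genes was called. NCOA4, the receptor for ferritin autophagy, was listed at 0 reads in the 6 libraries, which may come from how reads were assigned, and is not analysed here.

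Shares called in 6 stress and metabolic lists ranged from 2.70% (respiratory chain) to 16.0% (NRF2 targets), against 13.2% of all genes. Called were 4 of 25 NRF2 targets, 3 of 22 genes of the unfolded protein response, 2 of 24 cholesterol genes, 2 of 13 fatty acid genes, 3 of 26 glycolysis and hypoxia genes and 1 of 37 respiratory chain subunits. Of these 15 calls 11 were lost when at least 1 of the libraries was left out. The other 4 were EGLN3 (0.91 ± 0.16), an oxygen sensor, SLC2A3 (-0.86 ± 0.11), a glucose transporter, SREBF2 (0.27 ± 0.06), the sterol transcription factor, and EIF2AK3 (-0.29 ± 0.07), the kinase PERK. Thinned to the shallowest library, EGLN3 (adjusted p = 0.0518) and EIF2AK3 (0.17) lost their call as well. NFE2L2, which encodes NRF2, stood at -0.11 ± 0.07 (adjusted p = 0.323). Cytosolic chaperones were lower in 3 of 15 cases (20%, against 7.17% of all genes), with HSPA1A at -0.51 ± 0.12, DNAJB1 at -0.40 ± 0.07 and DNAJA1 at -0.25 ± 0.07. HSPA1A shares 69.3% of its 75-base stretches with its copy HSPA1B, and DNAJA1 was not called without WT replicate 2 (adjusted p = 0.0705). edgeR called 0 of 27 ribosome biogenesis genes (4 at an unadjusted p below 0.05, 0 by DESeq2) and 0 of 50 cytosolic ribosomal protein genes (3 at an unadjusted p below 0.05, 0 by DESeq2). Of 13 mitochondrially encoded mRNAs edgeR also called 0 (2 at an unadjusted p below 0.05, and 1 lower by DESeq2), with a median of -0.33. Their summed level ranged from 14731 to 18385 CPM in WT and from 10284 to 16275 CPM in ATG7KO. Without ATG7KO replicate 1 these counts were 1 lower, 3 higher and 2 lower.

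Of 28 tested G1/S and replication genes 10 were higher and 1 lower, against 6.07% and 7.17% of all genes, with a median of 0.08. CCND2 was higher by 0.73 ± 0.09, E2F2 by 0.42 ± 0.07 and the CDK inhibitor gene CDKN1B by 0.27 ± 0.06, and CCNE1 was lower (-0.35 ± 0.09). CCND1, a cyclin gene induced by ERK signalling and named after its value was seen, was higher by 1.19 ± 0.38, and by 1.35 ± 0.22 in full medium. Its starved call was lost without WT replicate 2 (0.73, adjusted p = 0.231) or 3 (0.0544) or ATG7KO replicate 1 (0.143) or 2 (0.0891). The count of 10 fell to between 3 and 6 whenever 1 of the 6 starved libraries was left out (5, 4 and 6 without WT replicate 1, 2 and 3, and 5, 3 and 5 without ATG7KO replicate 1, 2 and 3). Of 26 tested G2/M genes 4 were lower (15.4%, against 7.17% of all genes). CHFR, a mitotic checkpoint gene, stood at 5.53, 6.19 and 5.83 CPM against 0.258, 0.272 and 0.637 CPM (-4.17 ± 0.32, adjusted p = 1.57e-12), while BUB1 (-0.26 ± 0.06), CCNB1 (-0.23 ± 0.06) and PLK1 (-0.23 ± 0.06) had smaller differences, and PLK1 was not called without the shallow library (adjusted p = 0.0938).

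Among 15 tested BCL2 family genes 2 were lower and 2 higher (26.7% called, against 13.2% of all genes). MCL1, a short-lived survival protein, stood at 512, 505 and 493 CPM against 380.5, 347 and 384 CPM (-0.44 ± 0.06, adjusted p = 2.44e-07), with no overlap, and its line difference differed from that in full medium by -0.41 ± 0.08 (adjusted p = 0.00446). HRK stood at -0.59 ± 0.15, and BCL2 was higher by 0.78 ± 0.09. PMAIP1 (0.22 ± 0.06) lost its call without WT replicate 1 (adjusted p = 0.0845) or 3 (0.0865) and without ATG7KO replicate 1 (0.0858) or 2 (0.166).

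Markers of other cell types were examined in both lines. PTPRC, SPN, GATA1, SPI1 and MPO, defining genes of blood cells, were listed at 0 reads in the 6 starved libraries. A 0 in this table may come from how reads were assigned, since NCOA4 and TXNIP, which cells commonly express, are at 0 too. Of 9 tested haematopoietic markers 4 were lower in ATG7KO (TAL1, KIT, CD44 at -1.99 ± 0.28 and MYB at -0.62 ± 0.10), against 7.17% of all genes, and the summed level of the list was 128 to 133 CPM in WT and 102 to 103 CPM in ATG7KO. Epithelial markers were lower in 4 of 6 tested (7.17% of all genes): KRT8 (24.2, 24.8 and 29.5 CPM against 6.98, 7.54 and 5.09 CPM, -1.93 ± 0.13, adjusted p = 1.1e-13), KRT18 (-0.67 ± 0.08), ESRP1 (-0.71 ± 0.13) and EPCAM, which had 119 reads in WT and 3 in ATG7KO, a ratio of 30.3 with a 95% counting interval from 10.1 to 149. Their summed level was 122 to 129 CPM in WT and 64.7 to 72.8 CPM in ATG7KO, and CDH1 and GRHL2 had too few reads to test in both lines. Of 15 mesenchymal markers 6 were higher, among them VIM (0.39 ± 0.06), ZEB1 (0.65 ± 0.08), SPARC (0.68 ± 0.07) and PDGFRA, and 4 were lower, against 6.07% and 7.17% of all genes. The highest log2 fold change in this list was 0.68 and the median 0.09, and its largest changes were lower ones. MFAP2 had 104 reads in WT and 0 in ATG7KO, at least 26.5-fold lower with 3 counts allowed over the group. THY1 had 145 reads in WT and 3 in ATG7KO, a ratio of 36.9 (12.4 to 181). The summed level of this list was 1664 to 1694 CPM in WT and 2068 to 2146 CPM in ATG7KO. Only 6 of 12 epithelial and 9 of 22 haematopoietic markers passed the filter. A scarce marker such as EPCAM can pass it through libraries other than those of starved ATG7KO, which favours lower calls. These shares therefore do not compare evenly with that of all genes. The part of these markers in the ERK and other results was not tested.

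Matrix and developmental genes differed in both directions. Of 12 tested collagen chains 4 were higher and 2 lower, against 6.07% and 7.17% of all genes. COL4A6 stood at 54.2, 57.3 and 62.7 CPM against 109, 115 and 123 CPM (0.99 ± 0.08, adjusted p = 1.7e-12), its neighbour COL4A5 was higher by 0.48 ± 0.07, and COL2A1 by 0.42 ± 0.06. The neural genes NES (0.44 ± 0.06) and MAP2 (0.53 ± 0.11) were higher and PAX6 (-0.75 ± 0.15) lower. NKX2-5, the cardiac relative of NKX2-4, had 48 reads in WT and 0 in ATG7KO after EBSS, at least 12.2-fold lower with 3 counts allowed over the group. Of 11 tested RTL8, TCEAL and BEX genes of the X chromosome only RTL8B and TCEAL9 were called. On the whole X chromosome 107 of 540 tested genes were called (19.8%, against 13.2% of all genes), 34 higher and 73 lower.

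Interferon-stimulated genes were called in 7 of 21 cases (33.3%, against 13.2% of all genes). HLA-B was higher by 0.36 ± 0.07 (adjusted p = 0.000507) and IFITM1 was lower (-1.31 ± 0.23, adjusted p = 8.56e-05). IFIT2 (2.43 ± 0.59) was also higher, at 0.142, 0.188 and 0.192 CPM in WT and 1.23, 0.951 and 0.424 CPM in ATG7KO. These levels are low, and the call of IFIT2 was lost with the libraries thinned to the shallowest (adjusted p = 0.177). IFIT1 (1.56 ± 0.45) was not called without WT replicate 1 (adjusted p = 0.0654) or 3 (0.0919) or ATG7KO replicate 1 (0.105) or 2 (0.084). The 5 higher calls became 2 without WT replicate 1 or ATG7KO replicate 2 and 3 without ATG7KO replicate 1 or the shallow library, and the 2 lower calls became 1 without any of WT replicate 1 or 2 and ATG7KO replicate 1, 2 or 3.

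**Figure D5:**
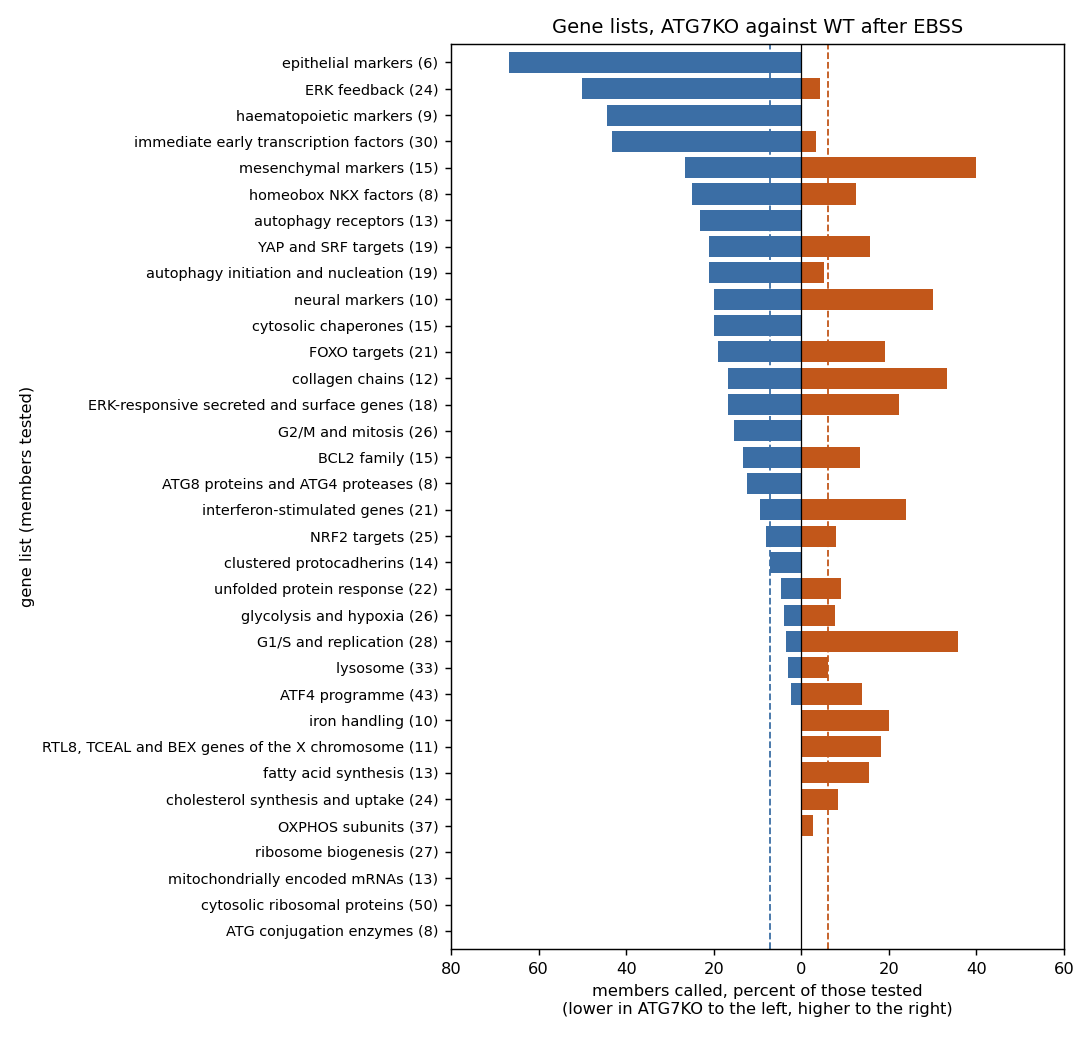
Share of the tested members of each of 34 gene lists (number tested in brackets) that was called lower (blue, left) or higher (orange, right) in ATG7KO after EBSS. Dashed lines mark the shares over all genes tested, 7.17% lower and 6.07% higher. ERK feedback and immediate early genes lie far beyond the line on the lower side, as do epithelial (66.7%) and haematopoietic markers (44.4%). Of those markers only 6 of 12 and 9 of 22 were tested, and scarce ones can pass the filter through WT alone.

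The line labelled RB1CC1KO/FIP200KO, for the scaffold of the ULK1 initiation complex, was compared with the same starved WT libraries, so that both comparisons share them and are set side by side with nothing read from their likeness. RB1CC1 RNA was not reduced there (222 ± 10.8 CPM in WT and 264 ± 14.8 CPM in the libraries labelled RB1CC1KO/FIP200KO), and 31.6% of genes were called, 14.8% higher, 16.9% lower and 5.71% at least 2-fold. RTL8B stood at -1.45 in that comparison and 5.70 in the ATG7KO one, NKX2-4 at 0.45 and 4.77, ERBB2 at -1.06 and 2.54, and TAFA5 at -3.95 and 4.06. Both RTL8B and NKX2-4 were near 0 in WT, as given above, so that their values of -1.45 and 0.45 rest on few reads. SPRY2 stood at -0.08 (adjusted p = 0.563) and -1.10, EGR2 at 0.03 (adjusted p = 0.842) and -0.92, KLF10 at 0.11 (adjusted p = 0.249) and -0.82, and NAB2 at -1.04 (adjusted p = 3.81e-10) and -1.10. COL11A1 stood at -9.61 and -9.0, and TFRC at 2.22 and 0.94. No test of the difference between these 2 comparisons was made.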

How the data were processed

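Polyadenylated RNA of 18 HAP1 libraries was measured, of which 6 make up the comparison. The authors deposited 1 table of raw read counts per gene and library, with 63677 Ensembl identifiers; 5 summary lines entered neither depth nor tests. Reads in no gene made up 9.57 to 15.1% of uniquely aligned reads in the 6 libraries. Per the submitters' processing notes STAR 2.4.2a, HTSeq 0.6.1p1, Picard, edgeR, DESeq2 and the build GRCh37 (hg19) were used; their roles, the strand setting and the annotation release are not stated, so reads of overlapping genes on opposite strands may be shared. Symbols and models came from GENCODE 29 (GRCh38) for 52526 identifiers, and promoter sequences from RefSeq (GRCh38.p14); no file coordinate was converted.

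From the deposited counts, 1 quasi-likelihood model (edgeR 4.0.16, limma 3.58.1, R 4.3.3; filterByExpr, TMM, robust) with a mean per group was fitted to all 18 libraries; 15179 genes passed the filter and the common biological coefficient of variation was 6.72%. The SE is the log2 fold change divided by the square root of F. The 4 contrasts were ATG7KO against WT after EBSS, the same in full medium, their difference, and RB1CC1KO/FIP200KO against WT after EBSS. Of 770 entries in 34 gene lists 768 matched; lists got counts and medians, with no set test. Counts of 0 were given a floor of 3 over the group; intervals and floors cover counting error only. Sequence sharing is the percent of 75-base stretches of a gene's transcripts found in another gene.

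Members, lists and tests were chosen with earlier results of these data known. Named were ATG7, RTL8B, NKX2-4, SPRY2 and EGR2; of called protein-coding genes with a log2 CPM averaging 1 or more and no overlap, the 12 largest log2 fold changes and 5 largest CPM differences per direction, and the 6 largest differences between media per direction; up to 4 members per list by p; and pathway factors. Alternatives were RLE and upper-quartile scaling, no filter, DESeq2 1.42.0, only the compared libraries, a replicate block, thinning to the shallowest library and leaving out each library. Simulated counts for the starved comparison, with 193 of 14559 genes changed, were used to test the model. It recovered 74.6% of the genes changed 1.5-fold, 79.7% of those changed 2-fold and 98.4% of those changed 4-fold. Of its calls 16 (8.99%) were false, a larger share than the threshold set for the adjusted p. Deviations of same-numbered WT and ATG7KO libraries in the same medium had correlations from -0.0841 to 0.0253, so the numbers were not taken as pairs. Pairs between the media were not checked.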

Additional observations from a re-analysis of the deposited data

Results flagged for a closer look

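The genes below are those named above whose gap between the lines itself differed between the media, by the test of the difference (ATG7KO over WT after EBSS, minus the same in full medium, log2; edgeR's quasi-likelihood test, Benjamini-Hochberg adjusted p below 0.05). There were 38, of which 26 had a lower and 12 a higher ratio after EBSS. No explanation of these differences was tested.

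The largest lower values were -3.28 for SPRY4, -2.28 for DUSP6, -2.22 for PTGS2, -1.94 for F3, -1.70 for TNFRSF12A and -1.68 for TAL1. Next came -1.47 for PHLDA1, -1.39 for CCN2, -1.39 for NAB2, -1.24 for TAGLN, -1.16 for DUSP4 and -1.07 for CCN1. Values near -1 were -1.0 for FOSL2, -0.95 for KLF10, -0.94 for EGR1, -0.92 for SPRY2, -0.89 for TRIB1, -0.88 for MAFF and -0.84 for CHAC1. Smaller ones were -0.68 for FOSL1, -0.64 for RASA2, -0.59 for SPRED2, -0.51 for AMOTL2, -0.50 for NAB1, -0.48 for SPRED1 and -0.41 for MCL1.

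Higher ratios after EBSS were 2.02 for NKX2-4, 1.33 for ATG7, 1.16 for GPC6, 0.92 for STX18, 0.86 for RPS6KL1, 0.83 for DAB2 and 0.83 for PYCR3. JUN had 0.82, ALX4 0.70, TFRC 0.63, E2F2 0.60 and XBP1 0.33. Of the 38 genes, 21 kept their call under each of 19 alternatives and 17 lost it in at least 1.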

How the results depend on the processing

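Of the genes given after EBSS, 160 called ones were run under all alternatives, and none of them changed direction. Of these calls 117 held in all alternatives and 43 were lost in at least 1, 29 after thinning, 19 without the shallow library and 5 with DESeq2. SQSTM1, not called, changed sign (-0.00022 with RLE scaling, -0.00075 with DESeq2, -0.011 thinned, and -0.015 to 0.035 over the fits that each left out 1 library), as did DUSP4, not called (-0.19 to 0.18, lowest without ATG7KO replicate 1), SRF (0.037 thinned, -0.10 to 0.031 leaving out 1 library), ETV4 (-0.12 thinned, -0.050 to 0.17) and ATG5 (-0.021 to 0.15), also not called.

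Starved calls numbered 1235 to 1922 (higher 503 to 919) when 1 library was left out, and 1314 (higher 518) after thinning. In full medium the higher calls numbered 444 to 606 when 1 library was left out. For the difference between the media the counts were 281 (higher 134) without the filter, 35 higher after thinning, and 71 to 275 when 1 library was left out (higher 15 to 143, lower 53 to 204, at least 2-fold 16 to 35). The share of higher calls there was 35.0%, 47.7% without the filter and 27.6% after thinning.

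With the replicate block the difference between the media had 293 calls (higher 141) and the starved comparison 2262, and no named call was lost. Within a medium the numbers did not pair the libraries of WT and ATG7KO. Whether they pair the fed and starved libraries of a line was not checked. Without the filter more genes are tested. The cause of the other shifts was not tested.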

Other observations

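Genes with 0 reads in all 3 starved libraries of 1 line were kept from being named by fold change or CPM difference through the minimum level. LINC02381 was also left out as a non-coding gene. Genes of this kind with at least 100 reads over the other line's 3 libraries are given here. Apart from MFAP2, already named as a list member, they were chosen after their values were seen. In ATG7KO 6 tested genes were at 0 reads, 5 of them protein-coding, and each had at most 3 reads in the 3 full medium ATG7KO libraries. FBXO17, an F-box gene, had 581 reads in starved WT (12.7 ± 1.75 CPM, SD, n = 3), so that ATG7KO was at least 148-fold lower with 3 counts allowed over the group. CHMP4C, an ESCRT-III subunit of abscission, had 189 reads in WT (at least 48.1-fold lower), LTBR, the lymphotoxin beta receptor, 180 reads (at least 45.9-fold lower), the GTPase gene RHOD 115 reads (at least 29.3-fold lower) and the microfibril gene MFAP2 104 reads (at least 26.5-fold lower). The non-coding gene LINC02381 had 129 reads in WT (at least 32.9-fold lower).

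The opposite pattern was seen in 1 gene. Lower depth in starved ATG7KO made 0 reads easier and 100 reads harder to reach there than in WT. RHBDD1, a rhomboid protease of the endoplasmic reticulum, had 0 reads in the 3 starved WT libraries and 145 in the starved ATG7KO libraries (4.03 ± 0.405 CPM), at least 63.2-fold higher. In full medium it had 2 reads in WT and 270 in ATG7KO. The libraries labelled RB1CC1KO/FIP200KO, also starved, had 0 reads of RHBDD1, FBXO17, CHMP4C, RHOD and LINC02381, 1 read of LTBR and 670 of MFAP2.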
